A study of Mus musculus with 8 samples.

Results

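Synaptic vesicle and active zone genes encode the machinery with which a nerve terminal stores, releases and recycles transmitter. A list of 46 such genes was followed, taken by symbol, in the ribosome-associated RNA of cortical synaptosomes at postnatal day 15. A row of its own was found for 45 of the 46 genes, out of 56576 genes listed, and all 45 entered the test, out of 31171 genes tested. The exception was Syt11, whose reads were counted together with those of the neighbouring noncoding gene 1500004A13Rik. There were 4 control libraries of genotype Lhx6-Cre;Erbb4+/+;Rpl22HA/HA and 4 conditional mutant libraries of genotype Lhx6-Cre;Erbb4F/F;Rpl22HA/HA. Both genotypes thus carried the Lhx6-Cre driver and 2 copies of the HA-tagged Rpl22 allele, and they differed in the floxed Erbb4 alleles. Erbb4 encodes a neuregulin receptor, and Lhx6-Cre drives recombination in the lineage of the medial ganglionic eminence (MGE) and preoptic area, which gives rise to parvalbumin (PV) and somatostatin (SST) interneurons. Tagged ribosomes were pulled down from detergent-treated synaptosomes with anti-HA beads, and libraries were made from 1 ng of RNA.

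In a terminal, synaptic vesicles are filled, tethered and primed at the active zone, a protein scaffold facing the cleft. Calcium entering the terminal binds sensors of the synaptotagmin family, and SNARE proteins then zip together and fuse the vesicle with the plasma membrane. The membrane is retrieved by endocytosis and re-used. Proteins of most of these steps come in families, and fast-spiking PV interneurons are known for their use of particular members, such as synaptotagmin 2 and complexin 1. The members are described here by role: 11 vesicle proteins, 8 calcium sensors, 9 genes of the SNARE machinery, 14 active zone genes and 4 endocytosis genes.

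Libraries held between 51010687 and 80226984 reads on genes. The study names 2 sequencing batches, which no label assigns to libraries, so the part of batch in the overlaps and differences below was not tested. Erbb4 had 1640, 5377, 4306 and 3034 normalized counts in control replicates 1, 3, 4 and 5, and 1711, 1648, 1233 and 1048 in mutant replicates 2, 3, 4 and 5. The library labelled control replicate 1 thus lay below mutant replicates 2 and 3 for the targeted gene, and the other controls lay above every mutant. The difference was -1.25 on the log2 scale (SE 0.34, adjusted p = 0.58, limma with Benjamini-Hochberg adjustment). These reads are summed over the constitutive parts of the gene, and the floxed part alone was not analysed here. Markers of the labelled cells were present in every library, with Lhx6, an MGE transcription factor, at 532 to 1781 normalized counts and Gad1, a GABA-synthesizing enzyme, at 1130 to 8135. RNA of cells outside the driver's lineage was present too, with the excitatory transporter gene Slc17a7 at 87106 to 122229 normalized counts. None of the defining markers of other cell types was at 0. A smaller value could mean fewer tagged synaptosomes, less RNA in each, or a changed share of RNA from other cells. These cannot be told apart in such bulk samples.

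A gene was called lower or higher in mutants at an unadjusted p of at most 0.05 (limma) and a fold change of at least 1.5, the thresholds of the study's methods. Of the 45 members, 7 were called lower, where 3.17% of all tested genes were, and 1 was called higher, where 3.98% of all tested genes were. The 7 were Sncb, Syt2, Syt5, Snap25, Vamp2, Cplx1 and Cplx3, and the 1 was Unc13b. After Benjamini-Hochberg adjustment over all genes tested, 0 members passed (smallest adjusted p = 0.58, limma), where 0.0449% of all tested genes did, while 13 members had an unadjusted p under 0.05, beside 2596 of the 31171 genes. DESeq2 and edgeR on the recovered reads also left 0 members at an adjusted p under 0.05. The 4 control and 4 mutant values did not overlap in 6 members lower in mutants (Rph3a, Nsf, Cplx3, Ppfia4, Dnm1 and Amph), where 2.17% of all tested genes separated in that direction. In 0 members the mutant values all lay above the control values, where 2.76% of all tested genes did. Log2 fold changes, mutant minus control, ran from -1.19 (Cplx1) to 0.95 (Unc13b), with a median of -0.35 over the members and 0.055 over all genes tested. Below 0 lay 34 of the 45 members, and 46.6% of all genes tested. With the filter raised to a mean of at least 100 normalized counts, all 45 members remained. The median over the 20014 genes tested was then -0.0016. Of these genes 851 were called lower and 834 higher, with 8 and 1 of the members among them.

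The number of calls depended on single libraries, over the members and over all genes alike. With all libraries, 988 of 31171 genes were called lower. Without control replicate 3, 2 members were called lower (Cplx3 of the first 7, and Pclo), beside 551 of 31195 genes. Without mutant replicate 5 it was 2 members (Sncb and Cplx3) beside 515 of 31139 genes. There were 3 members without control replicate 1 (643 of 31217 genes) and 3 without mutant replicate 4 (575 of 31199 genes). Without control replicate 5 it was 14 members beside 1977 of 31128 genes, and without mutant replicate 2 it was 11 beside 1188 of 31178. Cplx3 was called lower with any 1 library left out, and Sncb was in all of these fits but the one without control replicate 3. Unc13b was not called higher without control replicate 1, control replicate 3, mutant replicate 4 or mutant replicate 5.

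**Figure D1:**
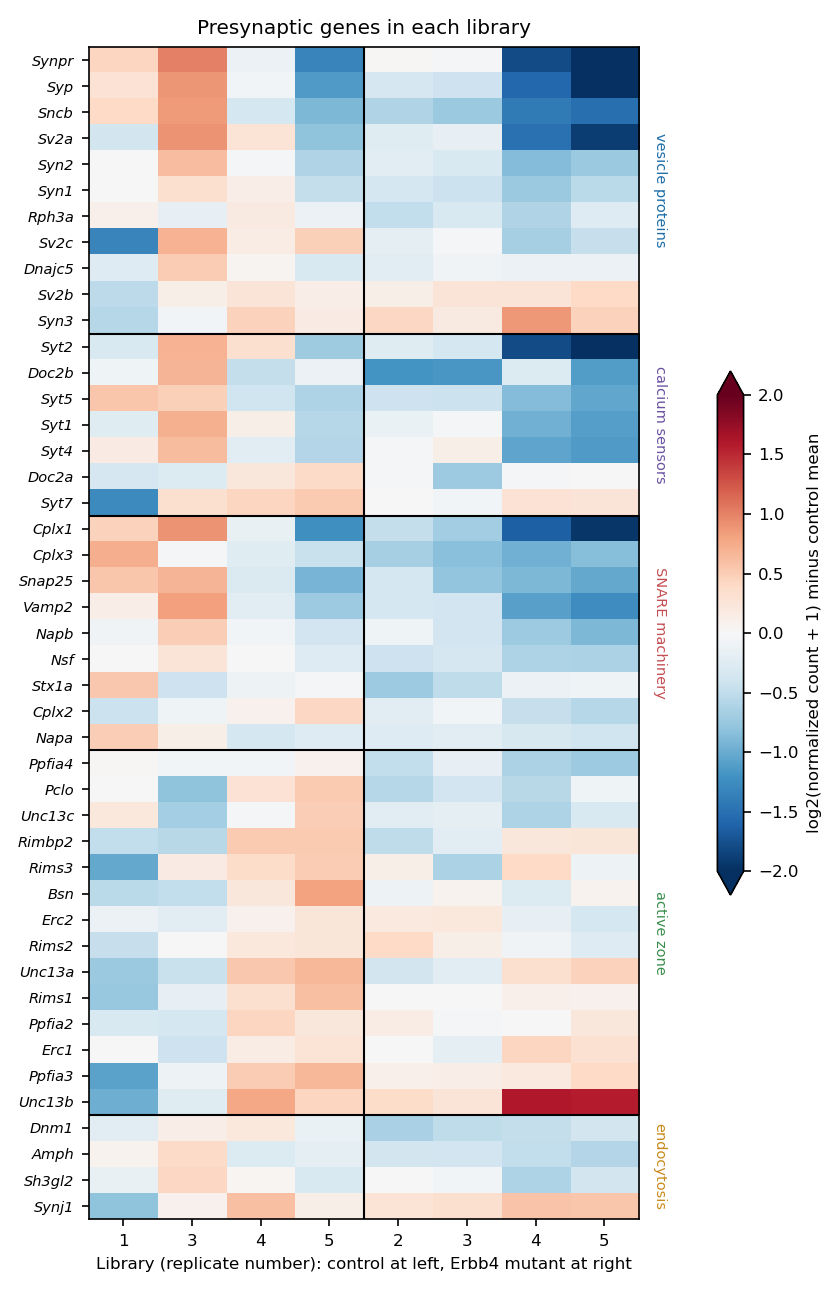
Each row is 1 of 45 members and each column 1 library, with control replicates 1, 3, 4 and 5 left of the black line and mutant replicates 2, 3, 4 and 5 right of it. Colour gives log2(normalized count + 1) minus the control mean of the gene, and the darkest blue cells lie in mutant replicates 4 and 5 among vesicle, calcium sensor and SNARE genes, while Unc13b is darkest red in the same 2 libraries.

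By role, vesicle, sensor and SNARE genes had medians below 0 and active zone genes a median near 0, as a description without a test between roles. The median log2 fold change was -0.52 over the 11 vesicle proteins, -0.55 over the 7 calcium sensors with a row of their own, -0.52 over the 9 SNARE genes, -0.36 over the 4 endocytosis genes and 0.0068 over the 14 active zone genes. All 9 SNARE genes lay below 0, as did 9 of the 11 vesicle proteins and 6 of the 7 calcium sensors. Of the 14 active zone genes, 7 lay below 0 and 7 above. The active zone median changed sign with the libraries, from -0.20 without control replicate 1 to 0.14 without control replicate 5. The calcium sensor median ran from -0.74 without control replicate 5 to -0.32 without control replicate 3, and the endocytosis median from -0.44 to -0.23 without the same libraries.

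**Figure D2:**
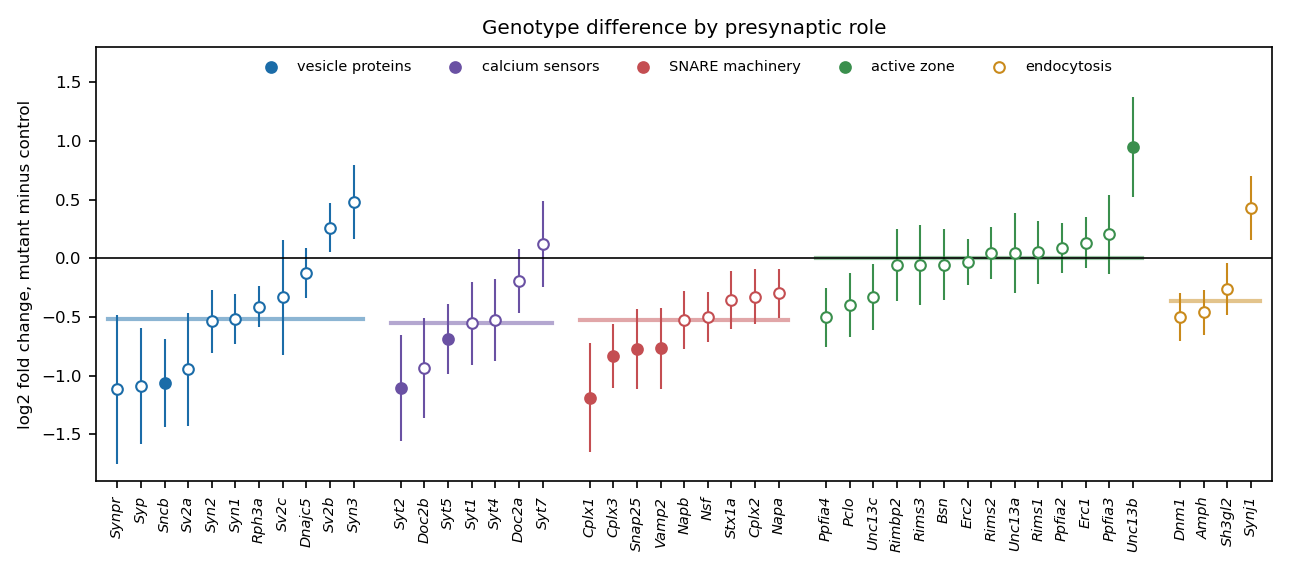
Points give the log2 fold change of each of 45 members, mutant minus control, with its standard error as a bar, grouped by role. Filled points met the call thresholds (7 lower, 1 higher), and horizontal lines mark group medians, which lie between -0.55 and -0.36 in all groups but the active zone, where the median is 0.0068.

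The sequences upstream of 3 members are shown. Cplx1 had the lowest and Unc13b the highest log2 fold change among the members. Syn1 was the one member with matches to both of the rarer motifs searched. Each is the 250 bases before the RefSeq start of the gene, in GRCm38.p6, 5′ to 3′ on the gene's strand, with matches on either strand in capitals. The letters searched were TGACGTCA, the cyclic AMP response element, then GGGCGG, the binding motif of Sp1 factors, then TATAAA, the core promoter motif, and TTCAGCACC, a piece of the RE1 silencer element. No motif contains another. The windows lie at chrX:20920919-20921168 on the minus strand for Syn1, at chr5:108550028-108550277 on the minus strand for Cplx1 and at chr4:43058703-43058952 on the plus strand for Unc13b.
Syn1: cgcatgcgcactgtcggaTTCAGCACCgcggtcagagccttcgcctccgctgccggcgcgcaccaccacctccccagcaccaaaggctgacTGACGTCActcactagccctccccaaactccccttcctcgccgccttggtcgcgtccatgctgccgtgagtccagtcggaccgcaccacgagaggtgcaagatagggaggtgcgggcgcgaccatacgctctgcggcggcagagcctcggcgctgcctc
Cplx1: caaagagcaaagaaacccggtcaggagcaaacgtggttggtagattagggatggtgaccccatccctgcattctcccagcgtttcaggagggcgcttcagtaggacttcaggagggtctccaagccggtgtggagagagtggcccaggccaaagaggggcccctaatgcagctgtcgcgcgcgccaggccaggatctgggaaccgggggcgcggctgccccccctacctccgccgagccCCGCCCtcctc
Unc13b: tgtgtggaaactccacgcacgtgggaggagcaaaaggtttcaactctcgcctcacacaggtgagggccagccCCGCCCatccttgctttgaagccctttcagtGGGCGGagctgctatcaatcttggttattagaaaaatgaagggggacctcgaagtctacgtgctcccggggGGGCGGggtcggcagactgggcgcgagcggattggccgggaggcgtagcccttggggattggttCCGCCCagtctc
RefSeq windows were matched for 36 of the listed genes, Syt11 included, 47 windows in all. The motif GGGCGG was found in 55.3% of the member windows and in 32.7% of 32851 windows of the same length over all genes, and TATAAA in 4.26% against 12.4%. The TATAAA matches lay in 2 windows of 1 gene, Sv2b. TGACGTCA was in 4.26% of member windows (Syn1 and Sh3gl2) against 1.55% of all, and TTCAGCACC in 4.26% (Syn1 and Ppfia3) against 0.301%. The bHLH motif CANNTG, not capitalised above, was in 70.2% against 66.2%. A match describes the letters in the window, not the binding of a factor. Among called members, Sncb, Syt2 and Cplx1 (lower) and Unc13b (higher) held GGGCGG or its reverse complement. Cplx3, called lower, held neither, and no window was matched for Snap25, Vamp2 and Syt5.

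Among the vesicle proteins, Sncb was called lower, Rph3a separated the genotypes by a smaller fold, and Sv2b and Syn3 were the 2 members above 0. Sncb encodes beta-synuclein, a small protein associated with vesicles. It had 2923, 3993, 1735 and 1191 normalized counts in control replicates 1, 3, 4 and 5, and 1458, 1322, 834 and 781 in mutant replicates 2, 3, 4 and 5. Mutant replicates 2 and 3 lay above the lowest control, replicate 5, so the groups overlapped. The log2 fold change was -1.07 (SE 0.37, unadjusted p of 0.016, adjusted p = 0.58, limma with Benjamini-Hochberg adjustment). Rph3a encodes rabphilin, a vesicle protein that binds Rab3. Its controls held 5629, 4664, 5976 and 4835 normalized counts and its mutants 3749, 4230, 3476 and 4373, without overlap. At -0.41 (SE 0.18, unadjusted p of 0.038, limma) on the log2 scale it stayed under the 1.5-fold threshold.

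Syp, the gene of the abundant vesicle membrane protein synaptophysin, had the highest control level per length of the group, 39848 normalized counts per kilobase (kb) of its longest transcript. Control replicates 1, 3, 4 and 5 held 123623, 186559, 97210 and 45762 normalized counts, and mutant replicates 2, 3, 4 and 5 held 79930, 75730, 34028 and 24376. The controls spanned a 4.08-fold range, and control replicate 5 lay below mutant replicates 2 and 3. With a log2 fold change of -1.09 (SE 0.49) and unadjusted p of 0.0501 (limma), Syp stood just outside the threshold. Sv2c, a paralog of the vesicle glycoprotein gene Sv2a, had the lowest level of the group, 21.3 per kb in controls. It had 68.2, 277, 190 and 239 normalized counts in controls and 150, 169, 108 and 124 in mutants, with control replicate 1 below every mutant. Its log2 fold change was -0.33 (SE 0.49), within the spread of the controls.

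The other vesicle genes did not meet the thresholds. Synpr, the gene of the synaptophysin relative synaptoporin, differed by -1.12 (SE 0.64, unadjusted p of 0.11, limma), with controls from 7339 to 37038 normalized counts and mutants from 2890 to 18734. Sv2a differed by -0.95 (SE 0.48, unadjusted p of 0.075, limma). The synapsin genes, whose products tie vesicles into a reserve pool, gave -0.52 for Syn1 (SE 0.21), -0.54 for Syn2 (SE 0.27) and 0.48 for Syn3 (SE 0.32). Syn1 had an unadjusted p of 0.033 and a fold under the threshold. Sv2b (0.26, SE 0.21) and the chaperone gene Dnajc5 (-0.13, SE 0.21) differed by little more than, or less than, 1 standard error.

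Calcium sensors included 2 calls, Syt2 and Syt5. Syt2 encodes the fast calcium sensor of PV basket cell terminals. It had 4204, 8450, 6478 and 3179 normalized counts in controls and 4416, 4083, 1505 and 1258 in mutants. Mutant replicates 4 and 5 lay below all controls, while mutant replicates 2 and 3 lay within the control range. The log2 fold change was -1.10 (SE 0.45, unadjusted p of 0.032, adjusted p = 0.58, limma with Benjamini-Hochberg adjustment). Syt5, another synaptotagmin, had 23495, 22129, 12093 and 10362 normalized counts in controls and 12007, 11866, 8771 and 7762 in mutants. The 2 high controls, replicates 1 and 3, stood apart from the other 2, which lay near mutant replicates 2 and 3. Its difference was -0.69 (SE 0.30, unadjusted p of 0.042, limma).

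Syt1, the main calcium sensor for synchronous release in most forebrain neurons, had the highest level per length of the sensors, 15340 per kb in controls. Its values were 58936, 114156, 75637 and 47032 normalized counts in controls and 63756, 69074, 35846 and 32715 in mutants, so the groups overlapped (-0.55, SE 0.35, unadjusted p of 0.15, limma). Doc2b, a soluble sensor implicated in spontaneous release, had the lowest level, 44.7 per kb. It had 176, 298, 134 and 172 normalized counts in controls, and 81.2, 83.1, 154 and 85.3 in mutants. Mutant replicate 4 lay above control replicate 4 and the other mutants lay below all controls, with a difference of -0.93 (SE 0.43) and unadjusted p of 0.052 (limma), just outside the threshold. Syt4 gave -0.53 (SE 0.35), Doc2a -0.20 (SE 0.27) and Syt7, a sensor linked to slower release, 0.12 (SE 0.36). The joint row of Syt11 and 1500004A13Rik had a log2 fold change of -0.80 (SE 0.35, unadjusted p of 0.043, limma), with 114460 to 230371 normalized counts in controls and 72945 to 133708 in mutants. The part of each gene in that row cannot be told apart, and it was not counted among the members.

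The SNARE machinery held 4 of the 7 members called lower: Snap25, Vamp2, Cplx1 and Cplx3. Snap25 and Vamp2 encode membrane-anchored SNARE proteins of the plasma membrane and the vesicle, and complexins clamp and promote fusion of the assembled complex. Cplx1 had 39619, 53950, 26026 and 12371 normalized counts in controls and 20743, 17798, 9304 and 7474 in mutants. Control replicate 5 lay below mutant replicates 2 and 3, and mutant replicates 4 and 5 were the lowest libraries. Its log2 fold change of -1.19 (SE 0.46, unadjusted p of 0.027, adjusted p = 0.58, limma with Benjamini-Hochberg adjustment) was the lowest among the members. Cplx3 had 1723, 1005, 878 and 762 normalized counts in controls and 651, 578, 531 and 572 in mutants. Here the groups did not overlap, with mutants in a narrow band (583 ± 50.1, SD, n = 4) and control replicate 1 well above the other controls. Cplx3 differed by -0.83 (SE 0.27, unadjusted p of 0.011, limma), the smallest unadjusted p among the members.

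Snap25 had 13558, 14836, 7531 and 4830 normalized counts in controls and 7209, 5330, 4936 and 4559 in mutants. Control replicates 1 and 3 lay above all other libraries, and control replicate 5 lay below 3 of the 4 mutants. The difference was -0.77 (SE 0.34, unadjusted p of 0.044, limma). Vamp2, the SNARE gene with the highest level per length (20370 per kb in controls), had 45597, 73405, 35514 and 25143 normalized counts in controls. Its mutants held 32466, 32033, 19485 and 17566 normalized counts, the first 2 of them above control replicate 5. At -0.77 (SE 0.35) and unadjusted p of 0.0497 (limma), Vamp2 stood just inside the threshold.

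Nsf, the ATPase that takes apart spent SNARE complexes, separated the genotypes by a fold below the threshold. It had 48084, 58208, 48988 and 40462 normalized counts in controls and 36593, 38600, 31516 and 31355 in mutants, a difference of -0.50 (SE 0.21, unadjusted p of 0.039, limma). Cplx2 had the lowest level of the group, 326 per kb in controls. Its controls held 1166, 1488, 1676 and 2104 normalized counts and its mutants 1351, 1508, 1145 and 1063, which overlapped (-0.33, SE 0.23). The other SNARE genes were Stx1a, the plasma membrane syntaxin (-0.35, SE 0.24), and the adaptor genes Napa (-0.30, SE 0.21) and Napb (-0.52, SE 0.25, unadjusted p of 0.059, limma). The SNARE partners thus lay on the same side of 0 without the calls reaching all of them.

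**Figure D3:**
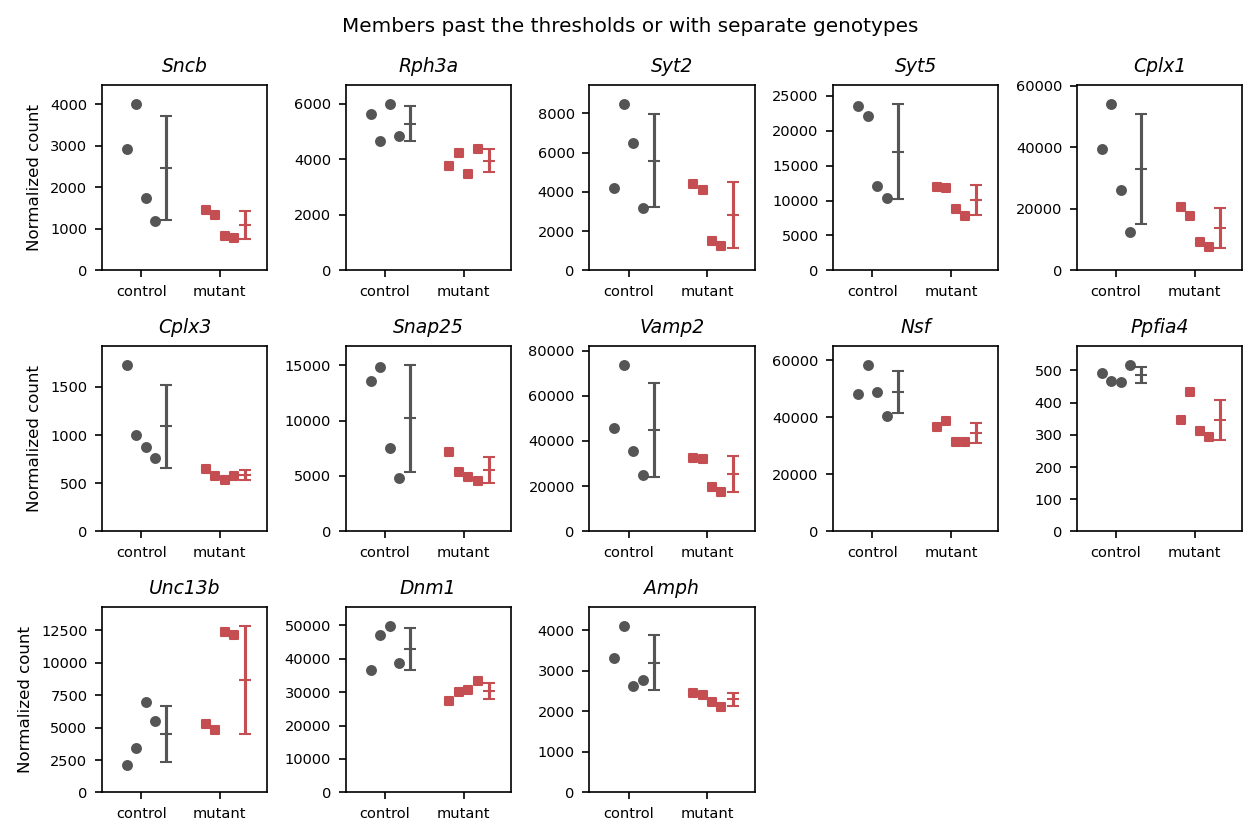
Normalized counts per library (circles, control; squares, mutant; bars, mean and SD, n = 4 each) for the 13 members that met the call thresholds or whose genotypes did not overlap, each on its own axis from 0. Cplx3, Nsf, Rph3a, Ppfia4, Dnm1 and Amph separate fully, while for Cplx1, Syt2, Vamp2 and Sncb the higher mutants reach into the control range.

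Active zone genes showed 1 call, Unc13b, in the direction opposite to the other calls. Unc13b encodes Munc13-2, a priming factor that opens syntaxin for SNARE assembly. It had 2082, 3452, 7000 and 5494 normalized counts in controls and 5257, 4852, 12376 and 12122 in mutants. Mutant replicates 4 and 5 lay above every control, and mutant replicates 2 and 3 lay within the control range. The log2 fold change was 0.95 (SE 0.43, unadjusted p of 0.048, adjusted p = 0.58, limma with Benjamini-Hochberg adjustment), just inside the threshold. Its paralog Unc13a, for Munc13-1, had 8620, 10576, 20951 and 22815 normalized counts in controls and 11215, 12420, 17999 and 19893 in mutants. For Unc13a the mutants lay inside the control range (0.049, SE 0.34), and the third paralog, Unc13c, was not called either (-0.33, SE 0.28).

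The liprin-alpha genes, whose products help recruit vesicles and scaffold proteins to release sites, held both ends of the active zone levels. Ppfia3 had the highest level per length, 2673 per kb in controls, with 5630, 11084, 16900 and 18703 normalized counts in controls and 12648, 12990, 13511 and 15621 in mutants. Control replicate 1 was the lowest library, and the 4 mutants lay close together inside the control range. Its log2 fold change of 0.20 (SE 0.34) turned to -0.15 without control replicate 1. Ppfia4 had the lowest level, 79.9 per kb. It had 494, 466, 464 and 516 normalized counts in controls and 345, 433, 311 and 294 in mutants, which did not overlap (-0.50, SE 0.25, unadjusted p of 0.071, limma). This separation rested on controls that spanned a 1.11-fold range, the narrowest among the members.

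The large scaffold genes were not called. Bsn, for bassoon, held 18883 to 47826 normalized counts in controls and 22711 to 28869 in mutants (-0.055, SE 0.30). Pclo, for piccolo, held 2450 to 6107 in controls and 2883 to 4015 in mutants (normalized counts), a log2 difference of -0.40 (SE 0.28), and was called lower without control replicate 3. The RIM genes Rims1, Rims2 and Rims3, whose products link calcium channels and vesicles, lay at 0.052, 0.045 and -0.057 on the log2 fold scale. Erc1 (0.13), Erc2 (-0.031), Rimbp2 (-0.060) and Ppfia2 (0.087) completed the set. Control replicate 5 was the highest control for 12 of the 14 active zone genes, whereas it was the lowest control for 7 of 11 vesicle proteins and 6 of 9 SNARE genes.

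Endocytosis genes had 0 calls and 2 members without overlap. Dnm1, the GTPase dynamin 1 that pinches vesicles from the membrane and the highest of the group at 9339 per kb in controls, had 36582, 46999, 49622 and 38819 normalized counts in controls. Its mutants held 27210, 29952, 30725 and 33189 normalized counts, all below the lowest control (-0.50, SE 0.21, unadjusted p of 0.034, limma). Amph, for amphiphysin, had 3322, 4088, 2613 and 2772 normalized counts in controls and 2438, 2409, 2229 and 2094 in mutants. These groups were separate as well, at -0.46 (SE 0.19, unadjusted p of 0.037, limma). Synj1, for the lipid phosphatase synaptojanin 1, had the lowest level (620 per kb), with 2380, 4394, 6311 and 4498 normalized counts in controls. Mutants of Synj1 held 5026, 5188, 6175 and 6080 normalized counts, inside the control range (0.43, SE 0.27). Sh3gl2, for endophilin A1, differed by -0.26 (SE 0.22).

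Spread within genotypes was larger in controls. The median coefficient of variation over the 45 members was 36.0% in controls and 19.8% in mutants, and the control SD was the larger one in 40 members. In 42 members the fold range of the 4 controls exceeded the fold between genotypes. The exceptions were Rph3a, Ppfia4 and Dnm1, which also separated the genotypes. Within each genotype the vesicle and active zone groups moved apart from library to library. The mean deviation of the vesicle genes minus that of the active zone genes, in log2 units from each gene's mean over 8 libraries, was 0.53, 1.08, 0.027 and -0.64 in control replicates 1, 3, 4 and 5, and 0.13, 0.15, -0.55 and -0.71 in mutant replicates 2, 3, 4 and 5. The groups overlapped on this scale, since control replicate 5 lay below mutant replicates 2, 3 and 4. Mutant replicates 2 and 3 both exceeded mutant replicates 4 and 5 in 8 of 9 SNARE genes and 7 of 11 vesicle proteins, but in 4 of 14 active zone genes.

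Interneuron markers moved with the same libraries. The mean log2 deviation of 8 PV interneuron markers was 0.82, 1.73, 0.47 and -0.51 in control replicates 1, 3, 4 and 5, and 0.092, 0.21, -1.16 and -1.66 in mutant replicates 2, 3, 4 and 5. For the vesicle proteins the matching values were 0.082, 0.76, 0.33 and -0.20, then 0.056, 0.060, -0.49 and -0.61. Both lists were highest in control replicate 3 and lowest in mutant replicate 5. Of the 9 MGE markers, which include the targeted gene Erbb4, 9 lay below 0 (median log2 fold change -0.89). The 3 called lower were Gad1, Gad2 and Erbb4 itself. Over all tested genes, 3.17% were called lower and 3.98% higher. Summed MGE markers ran from 28136 to 84783 normalized counts in controls and from 15026 to 40410 in mutants. Summed PV markers ran from 20219 to 101084 in controls and from 11320 to 34413 in mutants (7 of 8 below 0, 4 called lower). Summed SST markers ran from 105691 to 672624 and from 46836 to 270531 (7 of 8 below 0, 1 called lower). The 8 oligodendrocyte markers lay below 0 too (median -0.62, 2 called lower), with sums of 225751 to 662308 in controls and 196418 to 282013 in mutants. The 11 excitatory markers with a row had a median of -0.15, with 7 below 0, 1 called lower and 1 called higher, and sums of 141038 to 176357 in controls and 124873 to 153751 in mutants. Markers of interneurons of the caudal ganglionic eminence (8 of 10 below 0), astrocytes (6 of 8), microglia (7 of 8) and oligodendrocyte precursors (2 of 5) held 0 calls, and of 8 endothelial and mural markers 7 lay above 0 and 2 were called higher. The part of these marker shifts in the values of the presynaptic genes was not tested.

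Transcript length also differed between the roles. The median longest GENCODE transcript was 7863 bases for the active zone genes, against 4289 for vesicle proteins, 4361 for calcium sensors, 2859 for SNARE genes and 3986 for endocytosis genes. Across 16598 tested genes with a length, longer transcripts had higher log2 fold changes (Spearman's rho 0.31), and across the 45 members rho was 0.58. Across the 7672 of these genes with a control mean of at least 1000 normalized counts, rho was 0.52. These are descriptions over genes that share the same 8 libraries. Among transcripts over 6000 bases the median was 0.25 over all genes and -0.055 over 17 members, and above 4000 up to 6000 bases it was 0.17 over all genes and -0.50 over 13 members. Above 2000 up to 4000 bases the medians were -0.075 and -0.52 (13 members). In each of these classes the members' median lay below that of all genes.

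In a fit added after the data were seen, the trend of each library's values on transcript length was removed. The active zone median became -0.22, while those of the vesicle proteins (-0.56), calcium sensors (-0.55) and SNARE genes (-0.54) stayed near their first values. Calls numbered 9 lower and 1 higher in that fit, of which 6 were among the first 8. It held only the 16598 tested genes with a length, of which 502 were called lower and 648 higher. Syt5 and Vamp2 were no longer called, and Doc2b, Napb, Ppfia4 and Dnm1 were.

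**Figure D4:**
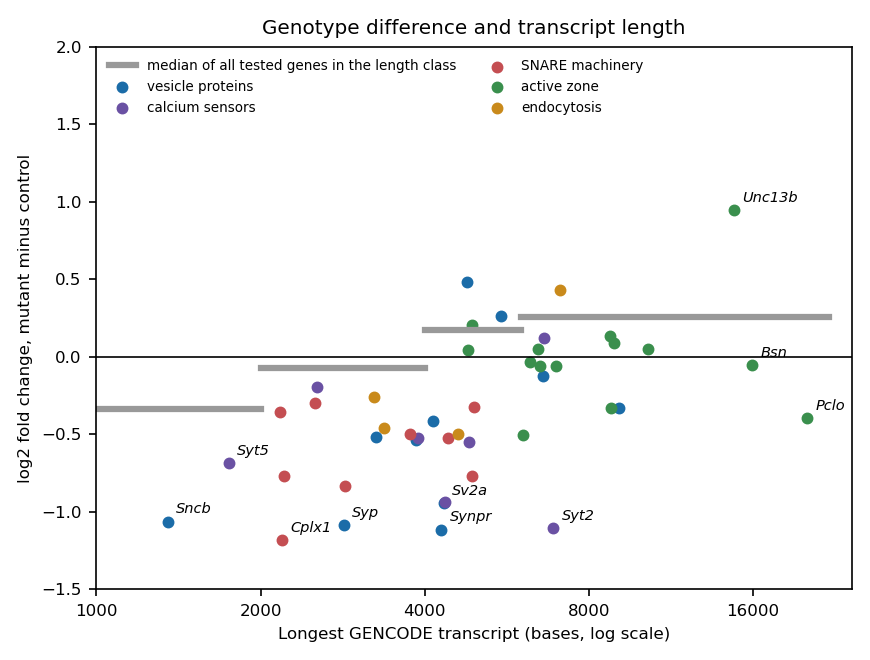
Log2 fold change, mutant minus control, of 45 members against the length of the longest GENCODE transcript on a log axis, coloured by role, with grey bars for the median of all tested genes in 4 length classes. Grey bars rise from -0.34 up to 2000 bases to 0.25 over 6000 bases, and most vesicle, sensor and SNARE points lie below them.

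Ratios between related members do not depend on the size factor of a library, and 12 pairs were compared by an exact two-sided permutation test, in which the smallest p that 4 against 4 libraries allow is 0.0286. After adjustment over the 12 pairs, 0 passed (smallest adjusted p = 0.34, exact permutation test). Even at that smallest p, 1 pair alone could not pass over 12 pairs, so this count does not decide on single pairs. Unc13b against Unc13a gave linear ratios of 0.24, 0.33, 0.33 and 0.24 in controls and 0.47, 0.39, 0.69 and 0.61 in mutants. Every mutant lay above every control, a log2 difference of 0.90 at the smallest exact permutation p of 0.0286. Without any 1 library the difference stayed between 0.77 and 1.04. Syt2 against Syt1 gave 0.071, 0.074, 0.086 and 0.068 in controls and 0.069, 0.059, 0.042 and 0.038 in mutants. Mutant replicate 2 lay just above control replicate 5, and the log2 difference was -0.55 (exact permutation p = 0.057). Sv2b against Sv2a gave 0.10, 0.067, 0.11 and 0.22 in controls and 0.15, 0.15, 0.39 and 0.56 in mutants. Its log2 difference was the largest, at 1.21, but control replicate 5 lay above mutant replicates 2 and 3 (exact permutation p = 0.11). Cplx1 against Cplx2 differed by -0.86 on the log2 scale (exact permutation p = 0.26), with control ratios from 5.88 to 36.2. Synpr to Syp (-0.028), Syn2 to Syn1 (-0.018) and Rims2 to Rims1 (-0.0070) were the pairs closest to 0 in log2 difference.

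**Figure D5:**
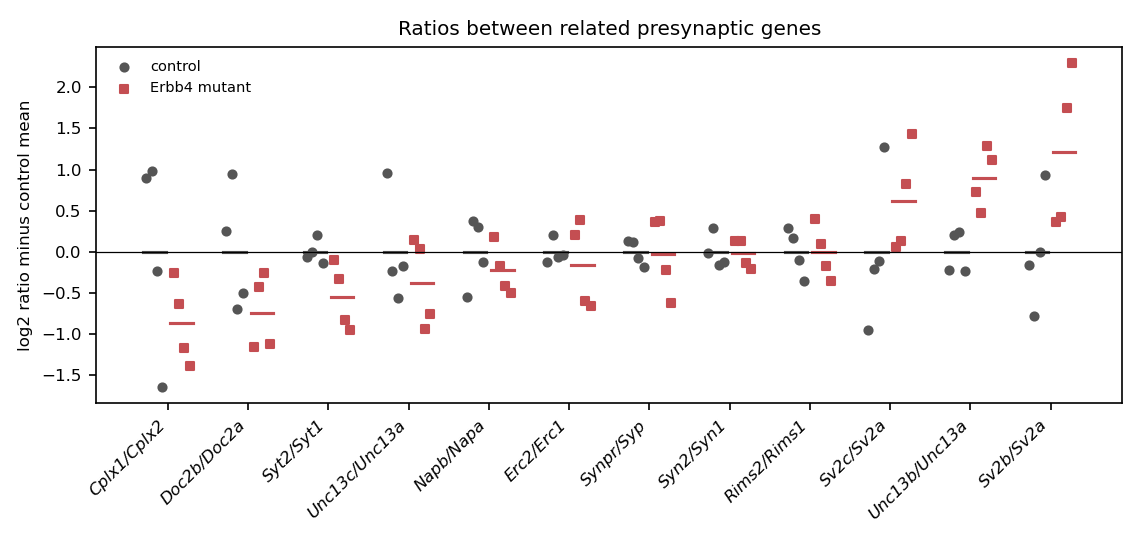
Log2 ratio of each of 12 gene pairs in each library, minus the control mean of the pair (circles, control; squares, mutant; short lines, means of 4). For Unc13b/Unc13a the mutants lie above all controls, and for the other 11 pairs the genotypes overlap.

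Other genes of the same pathway were read from the same fit. Of 52 listed, 50 were tested (Sncg was under the filter and Vamp1 was not analysed here), with 9 called lower and 0 called higher and a median log2 fold change of -0.37. Over all genes tested, 3.17% were called lower and 3.98% higher, with a median of 0.055. By role the medians were -0.71 over 14 further vesicle genes, -0.54 over 7 calcium sensors, -0.37 over 7 SNARE genes, -0.24 over 12 endocytosis genes and 0.063 over 10 active zone genes. Among those called lower were the vesicle genes Syngr1, Rab3a and Atp6v0d1, Syt3 and Syt12, Snap47, and the endocytosis genes Cltb and Pacsin1. Pacsin1, an endocytic adaptor gene singled out after its values were seen, stood at 13398 to 18679 normalized counts in controls and 8680 to 10231 in mutants, without overlap.

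Exons of 18 of the 45 members shared bases with an exon of another GENCODE gene, in 17 of them on the opposite strand, and none of the 8 called members was among them. Whether reads were counted by strand is not given in the sources used here, so reads of such partners may be included in those 18. They hold Unc13a, and with it the denominator of the Unc13b ratio (partner Colgalt1), and Bsn, whose partner Gm47303 lies on the same strand. The others are Syn1, Syn2, Syn3, Syp and Sv2b among the vesicle proteins, the sensors Syt4, Syt7, Doc2a and Doc2b, the active zone genes Pclo, Erc1, Erc2, Rimbp2, Ppfia2 and Ppfia3, and Synj1. Levels per kb compare genes on the longest transcript although reads were counted on constitutive regions, so the order of levels between genes is approximate.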

How the data were processed

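Ribosome-associated RNA of 4 control and 4 Erbb4 mutant libraries was sequenced paired-end. Per the labels and the study's methods, the authors aligned reads to mm10 with STAR 2.4.0, counted those on constitutive regions of Fast DB genes and deposited them as normalized counts, a signal divided by 1 DESeq2 size factor per library. Samples were grouped by the genotype in their labels, and replicates are described as biological. Sequencing batches are not given per library in the labels, so no within-batch value could be made. Read depth ran from 51010687 to 80226984, and 100% of the deposited values were whole multiples of 1 read within 0.1.

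Genes with a mean of at least 10 normalized counts in at least 1 genotype were fitted on log2(normalized count + 1), which understates the change of low genes, with limma 3.58.1 (lmFit, eBayes with trend) in R 4.3.3, without covariates, followed by Benjamini-Hochberg adjustment over all genes tested. Alternatives were other pseudocounts, filters and scalings, limma without trend or with library weights, edgeR 4.0.16 and DESeq2 1.42.0 on the recovered reads, a replicate block and leaving out each library. The replicate block drew its genotype difference only from replicate numbers found in both genotypes. The pipeline was tested on simulated data. Lengths came from GENCODE vM21 and promoters from RefSeq (GRCm38.p6).

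Members described in full were those past the thresholds, those whose genotypes did not overlap, the highest and lowest control level per length in each role, and pairs past the threshold. The members and lists were chosen with earlier results of these data known. The authors' own comparisons were not used. One further presynaptic gene is counted in its list but not reported here.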

Additional observations from a re-analysis of the deposited data

Results flagged for a closer look

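In 114 groups of 4 libraries tested with Dixon's criterion, 2 held a library far from the other 3, fewer than the 5.7 that chance gives at 1 in 20. Doc2a had 429 normalized counts in mutant replicate 3, where the other mutants had 697 to 714. Doc2b had 154 normalized counts in mutant replicate 4, where the other mutants had 81.2 to 85.3. Both genes encode soluble calcium sensors.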

How the results depend on the processing

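The median over the members stayed between -0.48 and -0.32 over the alternatives, and between -0.41 and -0.33 with 1 library left out, and 0 members reached an adjusted p under 0.05 in any of these fits (limma, edgeR or DESeq2, as named). Counts of calls moved more. Members called lower were 3 by limma without trend, 14 with library weights and 14 with the replicate block, beside 719, 1633 and 1719 of 31171 genes (988 at first), and 2 to 14 with 1 library left out. Members called higher were 0 with a pseudocount of 0.1, without a filter on low values, by limma without trend and by edgeR, and 0 to 2 with 1 library left out. The cause was not tested. Ppfia3 turned from 0.20 to -0.098 with library weights, -0.118 with the replicate block and ran from -0.15 (without control replicate 1) to 0.42 (without control replicate 5) with 1 library left out. The replicate block drew its genotype difference from replicates 3, 4 and 5 alone. Control replicate 1 and mutant replicate 2 have no partner of their number, so they carried no weight in it. Of the checks of single members, Erbb4 and ratios under alternatives other than leaving out 1 library, 255 were unchanged, 17 lost a call, 14 gained one and 2 were the reversals of Ppfia3. For genes, unchanged meant the same side of the call thresholds. For ratios it meant no change of sign, and ratios with a difference near 0 always counted as unchanged. Replicate numbers do not mark a shared mouse or day in the labels. Libraries of the same number correlated at 0.10, 0.098 and 0.082 in their deviations, and control replicate 5 correlated best with mutant replicate 4 (0.085), so the numbers were not taken as pairs. Controls 1 and 3 correlated positively with mutants 2 and 3, as did controls 4 and 5 with mutants 4 and 5, in all 8 such comparisons (0.023 to 0.10), and the other 8 were negative (-0.12 to -0.029). No label ties libraries to the sequencing batches, and the part of this pattern in the results was not tested. Over all genes, 44.3% of the calls were lower, against 55.5% with DESeq2, 54.3% with the replicate block and 31.9% without control replicate 3. How the values depend on read depth was not tested.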
